A study of Mus musculus with 22 samples.

Results

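The comparison described here set endothelium-derived cells that carry the Kit receptor on their surface against cells of the same sort that lack it, at matched embryonic stages. Both populations were VE-cadherin-positive cells with a low level of surface CD44, sorted from the aorta-gonad-mesonephros (AGM) region, the part of the embryo around the dorsal aorta where the first blood stem and progenitor cells arise. The members were 6 of the 22 bulk RNA-seq libraries of the series, taken by the population and stage in their labels: 3 CD44LowKitPos libraries and 3 CD44LowKitNeg libraries, each group with 1 library at E9.5 and 2 libraries at E10. The CD44LowKitNeg libraries of E11 were left out because the CD44LowKitPos population had none at that stage. Every library held RNA of 25 cells of untreated, unmodified C57BL/6 embryos, amplified with the Smart-seq2 protocol and read as counts per gene. GEO's labels call the CD44LowKitNeg cells hemogenic endothelial cells and the CD44LowKitPos cells pre-HSPCs, precursors of haematopoietic stem and progenitor cells. The remaining libraries held CD44Neg cells, CD44LowKitNeg cells of E11 and CD44High cells of E11, and were used for reference levels and for one alternative fit.

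Blood stem and progenitor cells of the embryo are made from endothelium in a process called the endothelial to haematopoietic transition (EHT). In this process cells of the arterial wall lose the genes of vessel lining, such as those for junctions, arterial identity and basement membrane, take up genes of blood cells, and leave the wall as clusters of round cells. Runx1 is the transcription factor without which the transition does not take place. Kit, the receptor for stem cell factor, marks the clusters, and CD44 is a receptor for hyaluronan, a component of the extracellular matrix. The question put to the data was how far cells of the same CD44 level that differ in Kit differ in their transcriptome.

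Between 5625086 and 8657546 reads were counted per library and between 11839 and 12627 genes were detected. Levels are given as CPM, the counts of a gene scaled to a common library total, on library sizes scaled by TMM, in the order E9.5, E10, E10 within each group, which is the order of libraries S14, S15 and S16 for CD44LowKitNeg and S19, S17 and S18 for CD44LowKitPos. Where a gene had no count, up to 3 counts remain possible, equal to 0.366 to 0.538 CPM depending on the library. Molecular identifiers were not used, and this limit and the counting intervals cover counting error only. The labels do not say whether libraries of a group came from separate embryos or litters, so p-values measure only the spread between these libraries. The date in the labels changes with the stage, so stage and date cannot be told apart. By the distance between log2 CPM profiles, the E9.5 CD44LowKitPos library lay at 143.3 from the E9.5 CD44LowKitNeg library and at 144.6 and 153.1 from the E10 CD44LowKitPos libraries, while the E10 CD44LowKitPos libraries lay closest to each other (127.2). The CD44LowKitNeg libraries lay 160.1 to 170.9 from each other, and the E9.5 CD44LowKitPos library at 163.8 and 171.0 from S15 and S16.

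The genes of the 3 sorting proteins were read first, as a check of the labels; the gates were set on these proteins, so their difference is no finding. Kit was at 73.03, 40.6 and 21.4 CPM in CD44LowKitNeg and at 179, 258 and 281 CPM in CD44LowKitPos, and the groups did not overlap. Cd44 was at 367, 362 and 271 CPM against 200.4, 234 and 369.6 CPM, with overlapping groups. Cdh5, which encodes VE-cadherin, was read in all 6 libraries but was at 536, 1019 and 1219 CPM in CD44LowKitNeg and at 219, 77.1 and 226 CPM in CD44LowKitPos. Markers of other cells the gate could hold were read next. Of 6 macrophage markers, Adgre1, C1qa and C1qb were at 0 in all 6 libraries, and the summed level of the list was 0.59 to 42.3 CPM in CD44LowKitNeg and 15.3 to 21.7 CPM in CD44LowKitPos. The 6 erythroid markers summed to 14.7 to 32.6 CPM and 8.78 to 27.6 CPM, with Hba-a1 at 0 throughout. The 4 neural markers did not pass 0.325 CPM in any library. The 6 markers of mesenchyme and smooth muscle summed to 183.5 to 317 CPM in CD44LowKitNeg and 125.4 to 283.6 CPM in CD44LowKitPos, nearly all of it Acta2, smooth muscle actin, at 178, 243 and 315 CPM against 121, 283 and 189 CPM, while Myh11 and Col1a1 were at 0 in all 6 libraries. What Acta2 contributes to the results was not tested. The 6 markers of endothelium summed to 2617 to 3890 CPM in CD44LowKitNeg and 682 to 1239 CPM in CD44LowKitPos, and 6 markers of early blood cells to 82.0 to 247 CPM and 372 to 791 CPM, so that CD44LowKitPos libraries carried transcripts of both kinds. The endothelial sum includes the sorting gene Cdh5.

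The genes called higher in CD44LowKitPos included Ptprc, Plek and Coro1a of blood cells, and those called lower included Tjp1, Col5a2 and Adgrf5 of vessel lining. Of 11059 genes tested with edgeR's quasi-likelihood test and stage as a covariate, 55 passed an adjusted p of 0.05 (0.497%), 34 higher (0.307%) and 21 lower (0.19%) in CD44LowKitPos. Their median absolute log2 fold change was 3.04, and in 54 of them the 3 libraries of one group all lay above the 3 of the other. That separation alone is common here: 28.9% of all tested genes showed it, 14.6% with CD44LowKitPos above and 14.3% with CD44LowKitPos below. The test rested on 3 residual degrees of freedom, and the count moved with single libraries. Without CD44LowKitNeg S15 or CD44LowKitPos S17 no gene passed in edgeR (2104 and 1507 genes at an unadjusted p under 0.05), without S16 6 genes passed and without S18 2 genes, whereas without an E9.5 library, S14 or S19, 256 and 219 genes passed. A fit of all 22 libraries, which borrows the spread of the other populations, called 1022 of 12949 genes for the same contrast (7.89%, with 3.37% higher and 4.52% lower), and DESeq2 called 1925 of 11059 (17.4%). Of the 55 genes, 43 were also called in the fit of all 22 libraries and 55 by DESeq2, in the same direction. The share of calls that were higher was 61.8% in the main test and 42.8% in the fit of all 22 libraries. Counts of members are therefore given below for the main test and for the fit of all 22 libraries. The study names Bmx, Jag1, Notch1, Ltbp1, Myc, Ifitm1, Ly6e, Ctsc, Nfe2, Runx1, Spi1, Gfi1, Itgb3, Cd93, Madcam1, Hey1, Hey2, Dll4, Smad6, Smad7, Bmper, Ccnd1, Lef1, Adgrg6, Akr1c14 and Fas from these populations. Its text also names Gata2, Lyl1, Erg, Fli1, Lmo2, Tal1, Gja5, Aplnr and Foxo1. The direction of none of these genes is independent evidence. Mpo was listed beside them here but is not in the study's text. In pools of cells, fewer cells of a type and less RNA per cell cannot be told apart.

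The 8 genes with the largest increases were at or near 0 in CD44LowKitNeg. Gene spans are given on GRCm38, the build called mm10 in the processing notes, from GENCODE vM21. Ptprc (chr1:138062859-138175756), which encodes the pan-leukocyte phosphatase CD45, had no count in any CD44LowKitNeg library and 30.3, 118 and 98.3 CPM in CD44LowKitPos. Against the floor of 3 counts over the group this was at least 562-fold higher (adjusted p = 0.0222). Plek (chr11:16971206-17008718), the gene of pleckstrin, a substrate of protein kinase C in platelets and leukocytes, had 0, 0 and 0.147 CPM, a single count, against 73.4, 256 and 138 CPM (adjusted p = 0.00543). Their ratio was 3157, with a 95% counting interval of 566 to 124700. Both genes were lowest in the E9.5 CD44LowKitPos library, which was still far above all CD44LowKitNeg libraries.

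Rgs18 (chr1:144752683-144775427), a regulator of G-protein signalling of platelets and other blood cells, stood at 37.1, 87.98 and 37.7 CPM in CD44LowKitPos and at 0 in CD44LowKitNeg, at least 372-fold higher. Tyrobp (chr7:30413782-30417582), the adaptor DAP12 of myeloid receptors, stood at 14.4, 39.7 and 25.2 CPM and was at least 181-fold higher. Rnase6 (chr14:51123908-51132187), an antimicrobial ribonuclease, stood at 18.6, 68.95 and 23.2 CPM and was at least 253-fold higher. These 3 genes encode proteins of mature blood lineages and were all read only in CD44LowKitPos among the 6 libraries. The other members of the group are less tied to blood. Tuba8 (chr6:121210734-121226098), an alpha-tubulin, stood at 28.7, 75.8 and 22.6 CPM (at least 290.1-fold higher). Mamdc2 (chr19:23302609-23448497), a secreted proteoglycan, stood at 11.02, 67.3 and 50.9 CPM (at least 295-fold higher). Perp (chr10:18845071-18857073), a membrane protein that p53 induces and that takes part in desmosomes, stood at 68.6, 29.8 and 10.3 CPM (at least 248-fold higher) and was the one of the 8 that was highest in the E9.5 library. Adjusted p for these 6 genes ran from 0.0367 to 0.0461.

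**Figure D1:**
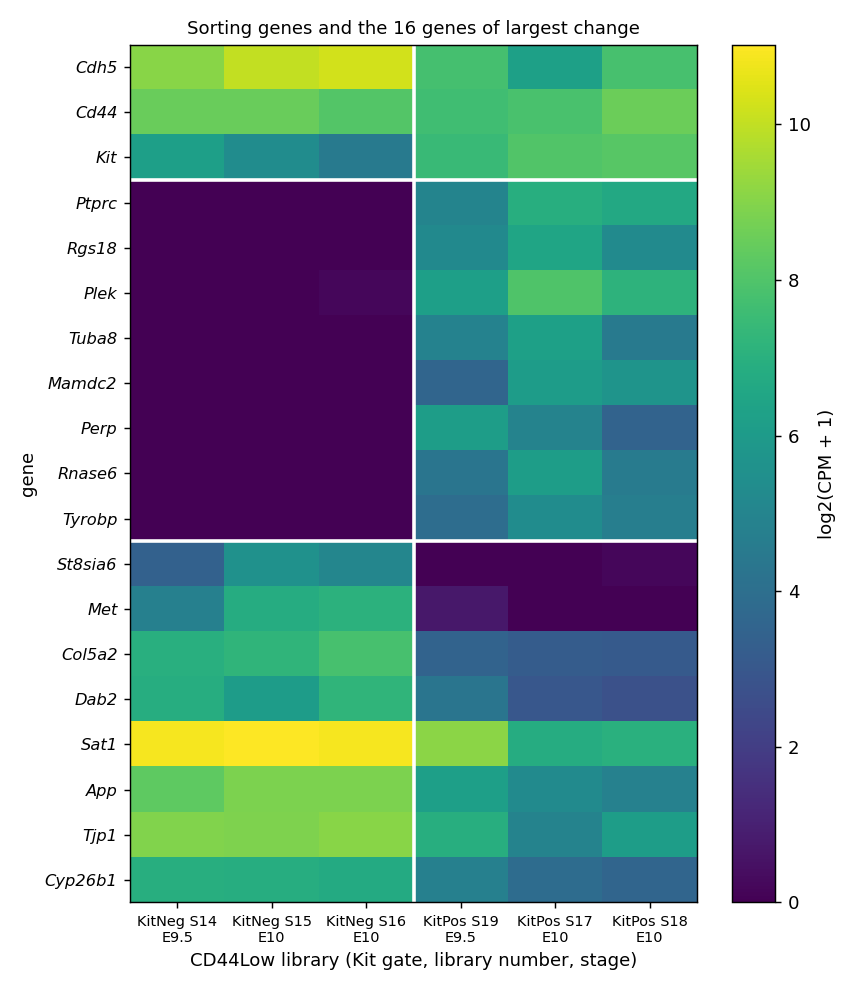
Level of the 3 sorting genes (top), the 8 genes with the largest increases (middle) and the 8 with the largest decreases (bottom) in each library, as colour on the log2(CPM + 1) scale; columns are libraries, with CD44LowKitNeg left of the white line and CD44LowKitPos right of it. The middle block is dark in all 3 CD44LowKitNeg libraries, and in the bottom block the E9.5 CD44LowKitPos library (S19) is above both E10 ones for 7 of the 8 genes.

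The 8 genes with the largest decreases encode proteins of varied function. Met (chr6:17463349-17573980), the receptor for hepatocyte growth factor, was at 27.1, 114 and 136 CPM in CD44LowKitNeg and at 0.621, 0 and 0 CPM in CD44LowKitPos (fitted log2 fold change -8.44 ± 1.17 (SE)). St8sia6 (chr2:13651018-13794734), a sialyltransferase, fell from 9.63, 47.2 and 32.4 CPM to 0, 0 and 0.139 CPM, a single count. Their ratio was 541, with a 95% counting interval of 96.7 to 21400, CD44LowKitNeg over CD44LowKitPos. Col5a2 (chr1:45374331-45503282), a fibrillar collagen chain, fell from 122, 148 and 225 CPM to 10.6, 8.13 and 7.79 CPM (log2 fold change -4.21 ± 0.37 (SE)). Every CD44LowKitPos library was below every CD44LowKitNeg library for each of these. Tjp1 (chr7:65296165-65527850), the tight-junction scaffold ZO-1, fell from 485, 469.7 and 528 CPM to 121, 29.3 and 68.5 CPM (log2 fold change -2.90 ± 0.43 (SE)). App (chr16:84952666-85175255), the amyloid precursor protein, fell from 312, 460.1 and 465 CPM to 72.8, 37.2 and 27.7 CPM (-3.26 ± 0.41 (SE)). Dab2 (chr15:6299788-6440715), an endocytic adaptor listed among venous genes, fell from 115, 68.2 and 147 CPM to 18.6, 6.99 and 5.71 CPM (-3.59 ± 0.50 (SE)). In these 3 genes the E9.5 CD44LowKitPos library was the highest of its group. Sat1 (chrX:155213126-155216449), the rate-limiting enzyme of polyamine breakdown, fell from 1893, 2082 and 1899 CPM to 549.8, 113 and 127 CPM (-3.33 ± 0.48 (SE)). Cyp26b1 (chr6:84571414-84593908), which degrades retinoic acid, fell from 121, 117 and 106 CPM to 26.7, 13.99 and 10.99 CPM (-2.83 ± 0.35 (SE)). Adjusted p for the 8 genes ran from 0.0178 to 0.0461.

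Hgf, the ligand of Met, went the other way and was called higher, with 0, 0 and 0.442 CPM in CD44LowKitNeg (3 counts in all) and 22.7, 43.6 and 31.6 CPM in CD44LowKitPos, a ratio of 222, with a 95% counting interval of 75.6 to 1080. Receptor and ligand were thus highest in opposite populations. This pair was picked out after the values were seen.

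The promoters of the 2 genes with the smallest p in each direction, among those of the 16 with an entry, are shown because their genes were among the most different between the populations. Each run is the 250 bases before the transcription start in RefSeq (GRCm38.p6), on the gene's strand, with matches to 6 short motifs in capitals. RefSeq and GENCODE place some starts differently, and the runs of Ptprc and St8sia6 lie inside the gene spans given above, that of Cyp26b1 in part. The letters searched were TGTGGT for RUNX proteins, AGATAA for the GATA family, GGAAGT for ETS proteins, ACAATG for SOX proteins, CACGTG for MYC and its partners and CCAAT for the NFY complex, each looked for on both strands, and none of the matches shown overlap.
Ptprc (chr1:138175306-138175555, minus strand): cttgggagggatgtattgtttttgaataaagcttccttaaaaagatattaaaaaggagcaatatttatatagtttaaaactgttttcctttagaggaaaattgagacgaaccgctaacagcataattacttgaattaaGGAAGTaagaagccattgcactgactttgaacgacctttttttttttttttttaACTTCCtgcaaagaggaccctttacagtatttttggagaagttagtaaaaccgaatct
Plek (chr11:17008719-17008968, minus strand): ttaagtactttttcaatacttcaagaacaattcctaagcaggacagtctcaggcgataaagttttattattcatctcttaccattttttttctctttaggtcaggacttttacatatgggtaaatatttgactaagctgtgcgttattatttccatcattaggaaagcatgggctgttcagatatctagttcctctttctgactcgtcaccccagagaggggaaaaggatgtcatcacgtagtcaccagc
St8sia6 (chr2:13793521-13793770, minus strand): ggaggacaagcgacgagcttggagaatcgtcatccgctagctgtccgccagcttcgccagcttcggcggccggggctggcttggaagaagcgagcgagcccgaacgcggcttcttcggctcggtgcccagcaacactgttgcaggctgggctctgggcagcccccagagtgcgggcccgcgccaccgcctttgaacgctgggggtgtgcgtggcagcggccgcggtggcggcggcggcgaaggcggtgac
Cyp26b1 (chr6:84593811-84594060, minus strand): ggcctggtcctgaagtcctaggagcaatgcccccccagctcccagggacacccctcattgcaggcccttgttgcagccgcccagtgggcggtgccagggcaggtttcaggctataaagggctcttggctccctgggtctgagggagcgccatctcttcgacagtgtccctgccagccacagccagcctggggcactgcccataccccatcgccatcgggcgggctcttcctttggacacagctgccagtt
Ptprc alone held matches, both to the ETS motif, on the plus strand of the gene from position -112 and on the minus strand from position -58 relative to the start. Of the 34 genes called higher, 24 matched a promoter entry by symbol, and 9 of these (37.5%) held GGAAGT, against 24.0% of 8554 tested genes with an entry and 19.99% of all 27025 entries. Of the 21 genes called lower, 16 had an entry and 2 of them (12.5%) held it. For TGTGGT the shares were 3 of 24 (12.5%) among genes called higher, 3 of 16 (18.8%) among genes called lower and 10.4% of tested genes, and for AGATAA 2 of 24 (8.33%), 0 of 16 and 5.52%. CACGTG was held by 2 of 24 (8.33%), 2 of 16 (12.5%) and 8.81%, ACAATG by 2 of 24 (8.33%), 0 of 16 and 5.76%, and CCAAT by 5 of 24 (20.8%), 4 of 16 (25.0%) and 36.6%. A match is a run of letters and not a site known to be bound.

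Genes for surface proteins and cytokine receptors of blood cells mostly had positive differences. Of 34 tested members among 42 listed 28 had a positive and 6 a negative fitted difference, with a median log2 fold change of 2.19 against -0.01 over all genes. Members at or near 0 in 1 group passed the filter only through the other, so that signs and medians over tested members lean upward in the blood lists and downward in the endothelial, arterial, matrix, signalling and guidance lists, and are descriptions. Called in the main test were 2 higher (Ptprc and Fcgr3) and none lower, and the fit of all 22 libraries called 9 higher and 1 lower, the endothelial sialomucin Emcn. Fcgr3, a receptor for the constant part of IgG, rose from 8.9, 7.18 and 8.11 CPM to 95.4, 59.03 and 38.3 CPM (log2 fold change 2.92 ± 0.41 (SE), adjusted p = 0.0461). Kit, on which the gate was set, is one of the 34 members and one of the 9, and is left aside. Itgb3, the platelet integrin beta-3 (CD61), was at 10.5, 12.2 and 17.4 CPM against 51.7, 56.9 and 50.4 CPM (adjusted p = 0.0627). Csf1r, the receptor for the macrophage growth factor, had 0, 0.179 and 0 CPM against 1.55, 8.46 and 10.2 CPM (adjusted p = 0.0854). The groups did not overlap for either gene, and in the fit of all 22 libraries Csf1r was called (adjusted p = 0.00281) and Itgb3 was not (0.405).

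Of 23 listed genes of the myeloid line only 10 were tested. Among these 9 differences were positive, 8 without overlap, and the median log2 fold change was 3.32. The main test called 4 higher and none lower, and the fit of all 22 libraries called 6 higher. Lyz2, lysozyme of myeloid cells, rose from 19.5, 23.9 and 30.96 CPM to 149.6, 223 and 199 CPM (log2 fold change 2.94 ± 0.25 (SE), adjusted p = 0.0178). Coro1a, an actin regulator of leukocytes, rose from 6.1, 34.1 and 37.3 CPM to 79.8, 547 and 374 CPM (log2 fold change 3.69 ± 0.26 (SE), adjusted p = 0.00741). Alox5ap, the activating protein of leukotriene synthesis, rose from 34.8, 78.98 and 67.2 CPM to 168, 232 and 266 CPM (log2 fold change 1.94 ± 0.24 (SE)). Lyz2 and Alox5ap were thus read in all CD44LowKitNeg libraries, unlike Tyrobp. Mpo, the granule enzyme myeloperoxidase, stood at 0, 0.359 and 3.83 CPM against 38.3, 179.9 and 83.5 CPM and had an adjusted p of 0.0503 (0.00567 in the fit of all 22 libraries). Alox5ap was not called in the fit of all 22 libraries (adjusted p = 0.053). Ptgs1 and Pla2g4a, outside the lists and named after their values were seen, were also called higher. Ptgs1, cyclooxygenase 1, rose from 5.61, 38.95 and 32.1 CPM to 73.2, 304 and 169.7 CPM (log2 fold change 3.04 ± 0.37 (SE)). Pla2g4a, the cytosolic phospholipase that frees arachidonic acid, rose from 66.5, 78.3 and 116 CPM to 284, 448 and 586 CPM (log2 fold change 2.31 ± 0.26 (SE)), but was not called in the fit of all 22 libraries (adjusted p = 0.187).

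Platelet and megakaryocyte genes differed among themselves. Of 21 tested members 14 differences were positive, 11 of them without overlap, and 7 negative, with a median of 2.72. Only Plek was called in the main test, and the fit of all 22 libraries called 4 higher (Plek, Nfe2, Pf4 and P2rx1) and 1 lower (Alox12). Alox12, the platelet lipoxygenase, was at 50.1, 28.9 and 129 CPM against 3.1, 0 and 0 CPM (adjusted p = 0.0702, and 0.0143 in the fit of all 22 libraries). Nfe2, a factor of platelet formation, was at 0.488, 34.1 and 22.9 CPM against 62.4, 162 and 119 CPM (adjusted p = 0.0902, and 0.0323 in the fit of all 22 libraries). Vwf, made by both platelets and endothelium, went the other way, at 160.3, 386 and 468 CPM against 79.6, 104 and 107 CPM (adjusted p = 0.0577, and 0.103 in the fit of all 22 libraries). Red-cell genes were little read: 5 of 20 listed genes were tested and none was called in the main test. Car2, carbonic anhydrase 2, was at 11.1, 10.6 and 1.03 CPM against 33.4, 174 and 294 CPM and was called in the fit of all 22 libraries (adjusted p = 0.0256). Tfrc, the transferrin receptor, was at 35.4, 114 and 104 CPM against 83.96, 78.4 and 168 CPM with overlapping groups (adjusted p = 0.457).

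Cytoskeleton and adhesion genes of blood cells had mostly positive differences. Of 32 tested members 30 differences were positive, 20 without overlap and none the opposite way, with a median of 2.34. In the main test 4 were called higher (Plek, Coro1a, Rac2 and Ptpn6), and in the fit of all 22 libraries 11. Rac2, a small GTPase of blood cells, rose from 0, 0 and 1.33 CPM to 23.9, 150.1 and 54.4 CPM (fitted log2 fold change 7.47 ± 1.07 (SE), adjusted p = 0.0461). Ptpn6, the phosphatase SHP-1, rose from 30.5, 61.2 and 60.2 CPM to 153, 339 and 254 CPM (log2 fold change 2.30 ± 0.23 (SE), adjusted p = 0.0273) but was not called in the fit of all 22 libraries (adjusted p = 0.3). Plek is also in the platelet list and Coro1a in the myeloid list.

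Transcription factors of blood did not move as one. Of 29 tested factors 19 differences were positive and 10 negative, and the median log2 fold change was 0.51. The main test called 2 higher and 1 lower, and the fit of all 22 libraries 4 higher (Gfi1b, Spi1, Nfe2 and Elf1) and 2 lower (Mecom and Ets1). Gfi1b, a repressor of endothelial genes in the EHT, was at 0, 0.359 and 0 CPM (2 counts in all) and 36.6, 77.1 and 24.6 CPM, a ratio of 461, with a 95% counting interval of 127 to 3812 (adjusted p = 0.0391). Myb, needed for definitive blood, rose from 8.17, 13.6 and 9.14 CPM to 56.6, 118 and 215 CPM (log2 fold change 3.51 ± 0.43 (SE), adjusted p = 0.0367, and 0.116 in the fit of all 22 libraries). Mecom, which encodes the stem-cell factor EVI1, fell from 551, 458 and 570 CPM to 104, 46.4 and 90.5 CPM (log2 fold change -2.74 ± 0.31 (SE), adjusted p = 0.0367). The groups did not overlap for these 3 genes. Spi1, the gene of PU.1, was at 5.24, 80.4 and 41.7 CPM against 121, 269.6 and 242 CPM, also without overlap, and had an adjusted p of 0.0631 (0.0316 in the fit of all 22 libraries). Gfi1, the paralogue of Gfi1b, was at 37.5, 41.6 and 12.2 CPM against 43.8, 29.6 and 33.1 CPM, with overlapping groups (adjusted p = 0.83). Of this pair of paralogues, Gfi1b alone was at or near 0 on one side of the Kit gate.

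The 7 factors of the heptad, which bind together in blood progenitors, were read in all 6 libraries, and none was called in the main test or in the fit of all 22 libraries. DESeq2 called 1 lower, Fli1. Runx1 was at 57.5, 138 and 48.8 CPM in CD44LowKitNeg and 113, 123 and 172 CPM in CD44LowKitPos (log2 fold change 0.76 ± 0.40 (SE), adjusted p = 0.314). One CD44LowKitNeg library, S15 at E10, exceeded 2 of the 3 CD44LowKitPos libraries in Runx1. Lyl1 was at 64.6, 120.3 and 120.3 CPM against 86.1, 258 and 178 CPM (log2 fold change 0.71 ± 0.25 (SE), adjusted p = 0.155). Fli1, which is also a factor of endothelium, was at 469.8, 293 and 289.7 CPM against 221, 154 and 194 CPM (log2 fold change -0.86 ± 0.21 (SE), adjusted p = 0.0851), and was together with Erg one of 2 heptad genes whose groups did not overlap, both with CD44LowKitPos below. The log2 fold changes of the other members were 0.43 for Tal1, 0.64 for Lmo2, -0.18 for Gata2 and -0.46 for Erg, with SE of 0.33, 0.40, 0.33 and 0.45. A p above the threshold at this number of libraries does not show that the levels were alike.

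**Figure D2:**
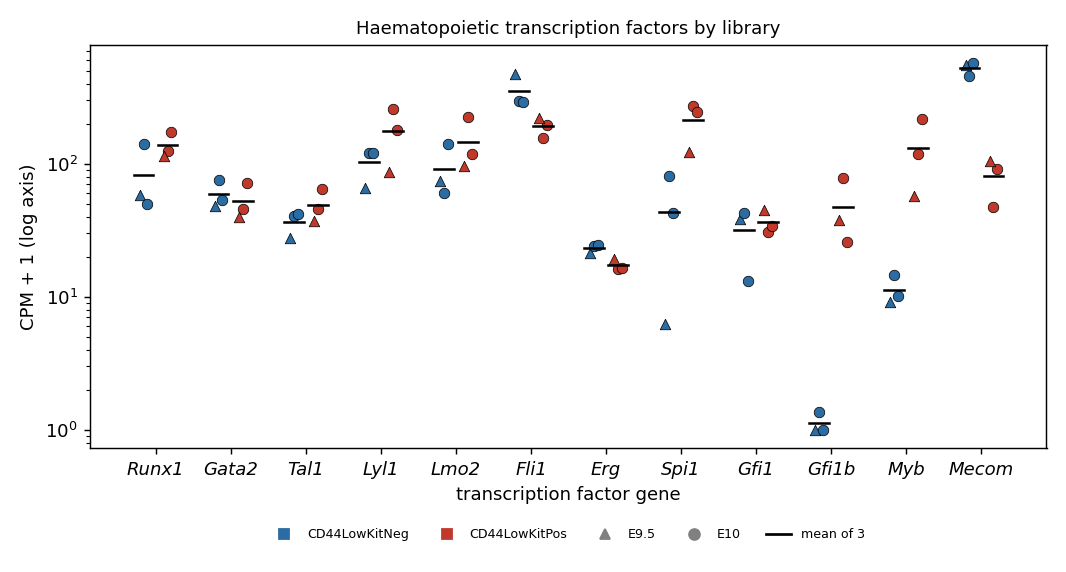
Level of 12 transcription factor genes in each library as CPM + 1 on a log axis, with CD44LowKitNeg in blue, CD44LowKitPos in red, E9.5 as triangles, E10 as circles and the mean of 3 libraries as a bar. Of the 7 heptad genes on the left only Fli1 and Erg do not overlap between the populations, both with CD44LowKitPos below. Spi1, Gfi1b and Myb lie above and Mecom below in all 3 CD44LowKitPos libraries.

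Differences of pan-endothelial genes were negative with 1 exception. Of 38 tested pan-endothelial genes 37 differences were negative, 32 without overlap against a background of 14.3%, and the median log2 fold change was -1.93. Adgrf5 alone was called lower in the main test, and the fit of all 22 libraries called 30 lower and none higher. Cdh5, whose protein set the gate, is counted in the 37, the 32 and the 30. Adgrf5, an adhesion G-protein-coupled receptor, fell from 279.9, 193 and 189 CPM to 84.7, 27.5 and 40.4 CPM (log2 fold change -2.23 ± 0.29 (SE), adjusted p = 0.0391). Tek, the angiopoietin receptor TIE2, was at 716, 920.1 and 906 CPM against 222, 114 and 250.1 CPM (adjusted p = 0.0503, and 0.000495 in the fit of all 22 libraries). Tie1, its co-receptor, was at 158, 253 and 270.1 CPM against 82.6, 118 and 109 CPM (adjusted p = 0.0627, and 0.234 in the fit of all 22 libraries). Cd93, a surface glycoprotein of endothelium, was at 538, 345 and 444 CPM against 272, 82.6 and 87.96 CPM (adjusted p = 0.0577, and 0.0208 in that fit). All of these genes were still read in every CD44LowKitPos library. The member with a positive difference was Tal1, a heptad factor that the list shares.

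Arterial genes had the lowest median of the 31 lists. All 28 tested members had a negative difference, 24 without overlap, with a median log2 fold change of -4.12. Mecom was the one called in the main test, and the fit of all 22 libraries called 20 lower. Bmx, a kinase of arterial endothelium, was at 154, 226 and 265 CPM against 24.4, 3.9 and 22.96 CPM (adjusted p = 0.0618, and 0.053 in the fit of all 22 libraries). Unc5b, a netrin receptor of arterial endothelium, was at 98.8, 92.4 and 75.8 CPM against 44.9, 4.72 and 7.51 CPM (0.071 and 0.00327). Adgrg6, an adhesion receptor that the study names as a gene of CD44LowKitNeg cells, was at 32.9, 65.9 and 156 CPM against 23.6, 2.77 and 0 CPM (0.185 and 0.00437). Venous genes were fewer: 11 of 12 differences were negative, the main test called Dab2, and the fit of all 22 libraries called 4 lower (Dab2, Emcn, Flt4 and Aplnr).

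Notch signalling, by which arterial cells instruct their neighbours, gave mostly negative differences. Of 27 tested members 21 differences were negative and 6 positive, with a median of -0.76. None was called in the main test, at adjusted p from 0.0894 upward. The fit of all 22 libraries called 7 lower (Dll4, Jag1, Notch1, Notch4, Hey1, Hey2 and Maml1) and 1 higher (Hes6). Among ligands, Jag1 was at 522, 842 and 704 CPM against 135, 6.5 and 0.696 CPM (adjusted p = 0.000362 in the fit of all 22 libraries) and Dll4 at 52.8, 126 and 141 CPM against 34.3, 1.46 and 3.48 CPM (0.000578). Of the receptors, Notch1 was at 95.95, 113 and 144 CPM against 69.8, 15.6 and 19.8 CPM (0.0149). The targets Hey1 and Hey2 were at 332, 336 and 328 CPM against 169, 10.4 and 45.1 CPM (0.0118) and at 74.7, 174 and 125 CPM against 22.7, 0 and 0 CPM (0.00211). In all 5 genes the E9.5 CD44LowKitPos library was between the CD44LowKitNeg libraries and the E10 CD44LowKitPos libraries. The nuclear mediator Rbpj gave a smaller difference and was not called, with a log2 fold change of -0.16 (SE 0.47).

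The BMP and TGF-beta pathway, which shapes vessel walls and the haemogenic endothelium, also gave mostly negative differences. Of 29 tested members 26 differences were negative, 18 without overlap, with a median of -1.66. None passed the main test, and the fit of all 22 libraries called 10 lower and none higher. Id1, a target of BMP signalling, was at 342, 341 and 331 CPM against 189, 85.5 and 98.3 CPM (log2 fold change -1.53 ± 0.27 (SE), adjusted p = 0.0577, and 0.0345 in the fit of all 22 libraries). The inhibitory Smad genes were at 34.3, 77.4 and 38.8 CPM against 17.1, 1.95 and 8.07 CPM for Smad6 (adjusted p = 0.116) and at 29.8, 61.03 and 42.2 CPM against 16.3, 7.16 and 8.63 CPM for Smad7 (adjusted p = 0.0915), without overlap in either. Bmper, a secreted BMP modulator, was at 17.2, 34.3 and 64.6 CPM against 7.29, 3.58 and 7.79 CPM (adjusted p = 0.0934). In the fit of all 22 libraries Smad6, Smad7 and Bmper were not called (adjusted p = 0.115, 0.0635 and 0.268). Ltbp1, which binds latent TGF-beta, was at 148, 133 and 80.5 CPM against 60.8, 21.1 and 32.4 CPM, without overlap (adjusted p = 0.0631 and 0.226). The 3 positive differences, of which those of Smad2 and Smad4 turned negative without some libraries, were those of the signal transducers Smad2, Smad3 and Smad4, with log2 fold changes of 0.31, 0.44 and 0.03 (SE 0.39, 0.49 and 0.63).

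Junction and matrix genes also gave mostly negative differences. Of 24 junction genes 22 differences were negative, 14 without overlap, with a median of -1.62, and the fit of all 22 libraries called 14 lower. The gate gene Cdh5 is counted in each of these numbers. Tjp1 was the one called in the main test. Ctnnb1, which encodes beta-catenin, was at 1478, 2226 and 2147 CPM against 697, 440.4 and 657 CPM (log2 fold change -1.69 ± 0.26 (SE), adjusted p = 0.0503, and 0.00143 in the fit of all 22 libraries). Of 41 genes of extracellular matrix and basement membrane 37 differences were negative, 26 without overlap, with a median of -2.36. In the main test 3 were called lower, and in the fit of all 22 libraries 22. Beside Col5a2, these were Fbn2, fibrillin 2, which fell from 264, 219.9 and 209 CPM to 69.7, 22.8 and 31.4 CPM (log2 fold change -2.63 ± 0.32 (SE)), and Mmp14, the membrane-type protease that cleaves collagen, which fell from 84.98, 90.7 and 137 CPM to 23.9, 17.4 and 21.4 CPM (log2 fold change -2.31 ± 0.34 (SE), adjusted p = 0.0462, but 0.0576 in the fit of all 22 libraries).

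Receptors and ligands of VEGF, angiopoietin and ephrin signalling gave 20 negative differences of 22, with a median of -2.31, none called in the main test and 11 called lower in the fit of all 22 libraries. The positive ones were Vegfb, which turned negative without either E9.5 library, and Angpt1. Angpt1, the ligand of the receptor encoded by Tek, was at 35.7, 144 and 40.99 CPM in CD44LowKitNeg and 101, 340 and 472 CPM in CD44LowKitPos, with CD44LowKitNeg S15 above the E9.5 CD44LowKitPos library (log2 fold change 1.93 ± 0.47 (SE), adjusted p = 0.0838, and 0.487 in the fit of all 22 libraries). Guidance genes of the semaphorin, plexin, slit and netrin families gave 19 negative differences of 22 tested among 34 listed, 13 without overlap, with a median of -2.10. Plxnd1, a semaphorin receptor of endothelium, was at 139, 214 and 239 CPM against 69.7, 44.1 and 46.6 CPM (adjusted p = 0.0577, and 0.0226 in the fit of all 22 libraries, which called 7 members lower). Angpt1, Rbpj, Smad2, Smad3, Smad4 and the members named as calls of the fit of all 22 libraries were named after their values were seen.

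**Figure D3:**
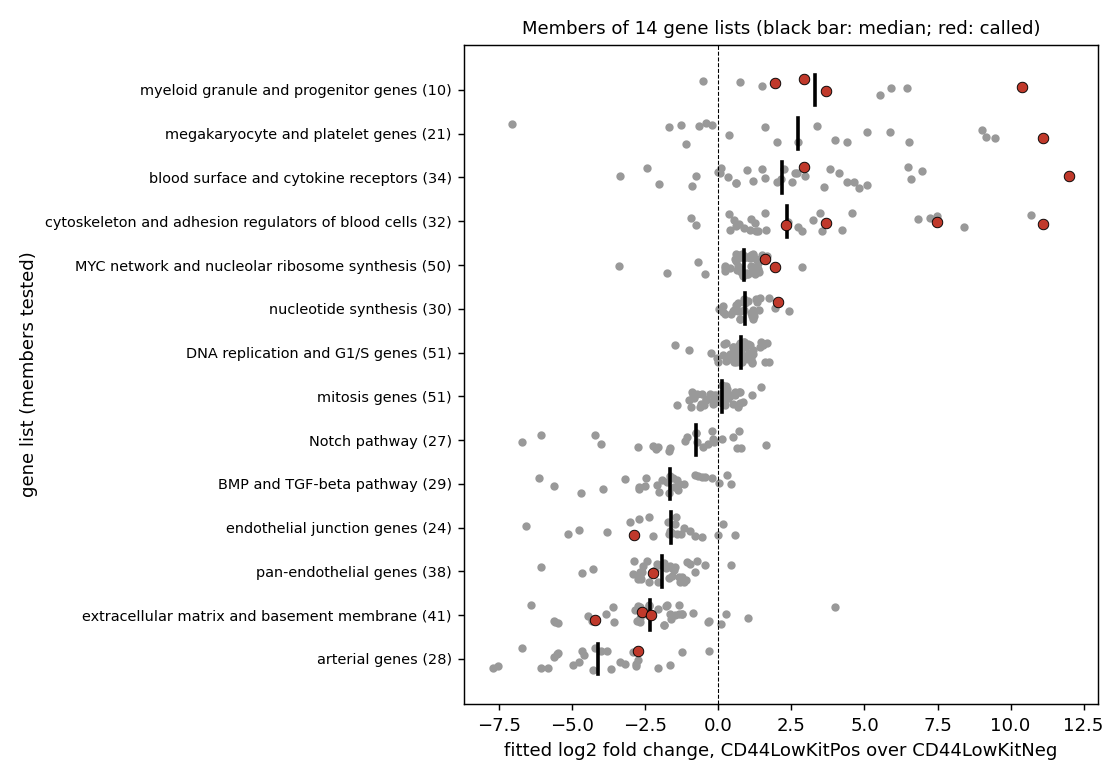
Fitted log2 fold change of CD44LowKitPos over CD44LowKitNeg for each tested member of 14 gene lists, with 1 point a gene, called genes in red, the others in grey and the median as a black bar; the number after each list is its tested members. The 4 blood lists shown have medians of 2.19 to 3.32, the growth lists cluster just right of 0, and arterial genes reach furthest left with a median of -4.12. Fitted values of genes at 0 in all CD44LowKitNeg libraries depend on the prior count and are not bounds.

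Genes of growth and biosynthesis mostly had small positive differences. Of 50 tested genes of the MYC network and of ribosome synthesis in the nucleolus 46 differences were positive, 31 without overlap, with a median log2 fold change of 0.89. The main test called 2 higher and the fit of all 22 libraries 17. Myc rose from 26.7, 26.8 and 25.4 CPM to 95.6, 112 and 93.1 CPM (log2 fold change 1.93 ± 0.28 (SE), adjusted p = 0.0461). Srm, spermidine synthase, a polyamine enzyme and known target of MYC, rose from 152, 171 and 181 CPM to 479, 638 and 403 CPM (log2 fold change 1.59 ± 0.24 (SE), adjusted p = 0.0461). The 4 negative differences of the list were Mxd3, Mxd4, Mxi1 and Mnt, which encode antagonists of MYC at its partner MAX, named after their values were seen, with log2 fold changes of -3.41, -1.76, -0.69 and -0.48 (SE 2.26, 1.002, 1.43 and 1.08), none of them called, and those of Mxi1 and Mnt turned positive without S17.

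All 30 tested genes of nucleotide synthesis had a positive difference, 20 without overlap, with a median of 0.90. The main test called 1 higher and the fit of all 22 libraries 9. Gart, which catalyses 3 steps of purine synthesis, rose from 40.4, 31.9 and 44.2 CPM to 127, 207 and 150 CPM (log2 fold change 2.04 ± 0.30 (SE), adjusted p = 0.0461). Adsl, another enzyme of the purine route, was at 108, 121 and 103 CPM against 319, 283 and 239.7 CPM (adjusted p = 0.0577, and 0.00555 in the fit of all 22 libraries). Phgdh, the first enzyme of serine synthesis, was called outside the lists and rose from 35.1, 50.6 and 30.2 CPM to 203, 476 and 251 CPM (log2 fold change 2.96 ± 0.37 (SE)). Of 20 glycolysis genes 18 differences were positive, with a median of 0.82 and 5 called in the fit of all 22 libraries (Gpi1, Aldoa, Tpi1, Gapdh and Ldha). Slc16a1, the lactate transporter MCT1, rose from 38.04, 69.5 and 69 CPM to 102, 219 and 279.9 CPM (log2 fold change 1.71 ± 0.24 (SE), adjusted p = 0.0461, but 0.148 in the fit of all 22 libraries). Ldha, lactate dehydrogenase A, was at 775, 753 and 817 CPM against 1530, 1979 and 1433 CPM (adjusted p = 0.0577 and 0.00617).

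Genes of DNA replication gave mostly positive differences, and genes of mitosis gave differences of both signs. Of 51 replication genes 46 differences were positive, 25 without overlap, with a median of 0.77, none called in the main test and 11 called higher in the fit of all 22 libraries. Of 51 mitosis genes 29 differences were positive and 22 negative, 3 without overlap, with a median of 0.12 and none called in either fit. Chaf1b, a histone chaperone of replication, was at 37.4, 23.3 and 26.8 CPM against 72.9, 118 and 96.7 CPM (adjusted p = 0.0677, and 0.00295 in the fit of all 22 libraries). Among G1 cyclins, Ccnd3 was at 101, 164 and 162 CPM against 195, 412 and 346 CPM (0.0618 and 0.0156), and Ccnd1 at 32.2, 25.9 and 39.2 CPM against 12.3, 17.4 and 20.04 CPM (0.235 and 0.287). Cenpe, a kinetochore motor, was at 650.3, 207 and 287 CPM against 254, 106 and 72.9 CPM with overlapping groups (adjusted p = 0.0577, and 0.0859 in the fit of all 22 libraries). Spc24, another kinetochore gene, had the opposite sign, at 114, 81.7 and 47.03 CPM against 259.5, 259.7 and 128 CPM without overlap (adjusted p = 0.0851 and 0.0672). The mitosis genes varied widely within each group; the E9.5 CD44LowKitNeg library held the highest Cenpe of the 6. CDK inhibitors and genes of quiescence gave 17 negative differences of 18, 7 without overlap, with a median of -1.37. Cdkn1b, the gene of p27, was at 76.6, 93.5 and 61.8 CPM against 29.3, 21.5 and 25.8 CPM (adjusted p = 0.068, and 0.0773 in the fit of all 22 libraries), and the fit of all 22 libraries called 4 members lower (Btg1, Ccng2, Foxo1 and Gas6).

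The difference between the populations was smaller at E9.5 than at E10 for most endothelial genes, on 1 library a group at E9.5. On the scale of log2(CPM + 1), the median difference of arterial genes was -1.26 at E9.5 and -4.56 at E10, of pan-endothelial genes -0.99 and -2.45, and of matrix genes -0.88 and -2.42, beside -0.0044 and 0.032 over all genes. The stages lay closer for some blood lists, with 2.56 and 3.06 for myeloid genes and 2.07 and 2.19 for cytoskeleton genes, than for others, with 1.09 and 1.93 for surface receptors and 1.59 and 2.27 for platelet genes. Of the 24 arterial genes whose CD44LowKitPos libraries were all below CD44LowKitNeg, the E9.5 library was the highest of the 3 in 23 (95.8%), as against 949 of 1581 such genes overall (60.0%). Of the 32 such pan-endothelial genes it was the highest in 26 (81.2%). In the opposite direction it was the lowest of the 3 in 7 of 8 myeloid genes (87.5%) and 16 of 20 cytoskeleton genes (80.0%) whose CD44LowKitPos libraries were all above, as against 727 of 1616 such genes overall (45.0%). The dependence on stage was tested as an interaction, and no gene of 11059 passed in edgeR with these 6 libraries (567 at an unadjusted p under 0.05), on 2 residual degrees of freedom. Without S15 184 genes passed (101 with the difference more positive at E9.5 and 83 more negative) and without S16 175 (107 and 68). Without S17 or S18 none passed (456 and 568 at an unadjusted p under 0.05). With all 22 libraries in the fit 18 of 12949 genes passed (0.139%), all with the CD44LowKitPos difference less negative or more positive at E9.5 than at E10. With at least 10 counts required in every library 5 of 8558 genes passed, all in that same direction.

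Among those 18, named after their values were seen, Icam2, an adhesion molecule of endothelium, was at 515, 459 and 398 CPM in CD44LowKitNeg and 359, 66.8 and 66.9 CPM in CD44LowKitPos, where the first value of each is E9.5 (interaction 2.14 ± 0.36 on the log2 scale, adjusted p = 0.0129). Gja5, the arterial connexin 40, was at 232, 268 and 347 CPM against 98.5, 1.79 and 5.84 CPM (interaction 5.06 ± 0.89 on the log2 scale, adjusted p = 0.0222). Igfbp3, a secreted carrier of insulin-like growth factors, was at 352, 390.4 and 629 CPM against 74.3, 0 and 0 CPM, and Stab1, a scavenger receptor, at 82.05, 101 and 136 CPM against 29.3, 0 and 0 CPM. In all 4 genes the E9.5 CD44LowKitPos library held an intermediate level and the E10 libraries were far lower, at 0 for Igfbp3 and Stab1. The others were Anxa2, Tmem204, Prex2, Ctsh, Cd40, Epas1, Sipa1l2, Rapgef4, Sulf2, Zfp472, Cttnbp2nl, 1810011O10Rik, Galnt18 and Gpr183. As the E9.5 libraries carry another label date and number 1 a group, the part of the stage in this pattern cannot be told apart from that of the library.

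**Figure D4:**
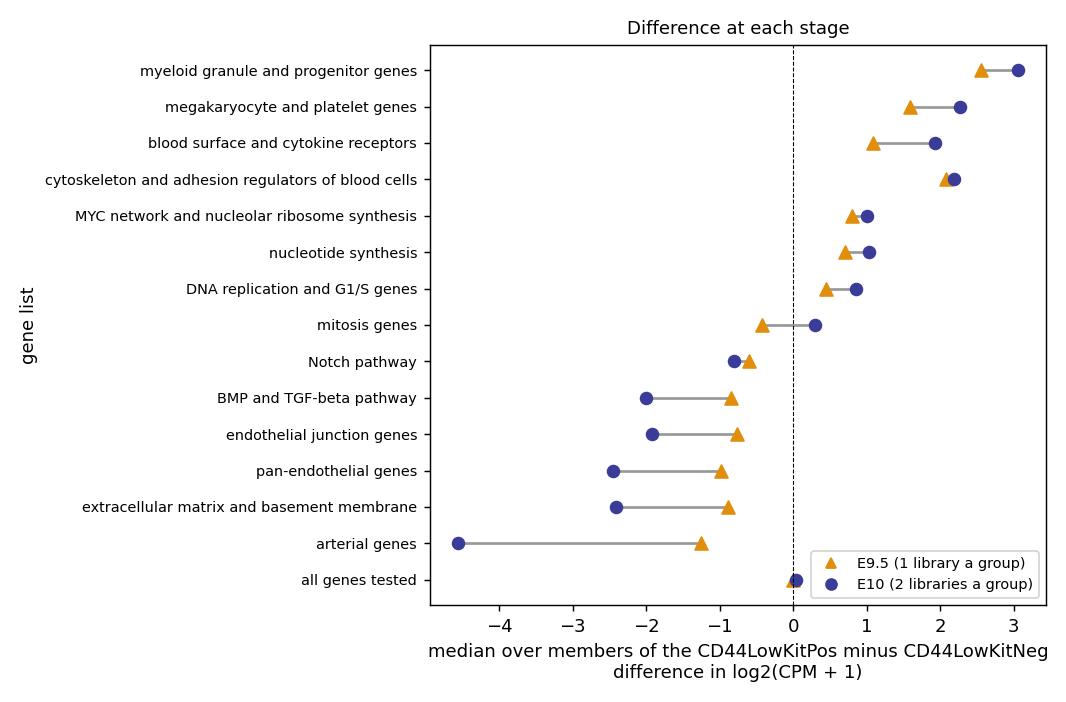
Median over the tested members of each list of the CD44LowKitPos minus CD44LowKitNeg difference in log2(CPM + 1), at E9.5 (triangles, 1 library a group) and at E10 (circles, 2 libraries a group). The stages lie close for cytoskeleton, MYC and nucleotide genes and furthest apart for arterial genes, from -1.26 to -4.56.

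Set beside the other libraries of the series, scaled together, the 8 genes with the largest increases were mostly read in the CD44High population of E11 as well, and the 8 with the largest decreases were mostly kept by CD44LowKitNeg cells at E11. Of the 8 increased genes 7 were at 0 in all 3 CD44LowKitNeg libraries of E11, and in 7 the 3 CD44High libraries of E11 all exceeded the 3 CD44LowKitNeg libraries of E9.5 and E10. Mean levels of Ptprc were 0 CPM in CD44Neg and 0 CPM in CD44LowKitNeg of E9.5 and E10, 78.6 CPM in CD44LowKitPos, 0.0431 CPM in CD44LowKitNeg of E11 and 415 CPM in CD44High of E11. Mean levels of Plek were 1.37 CPM in CD44Neg and 0.0451 CPM in CD44LowKitNeg of E9.5 and E10, 149 CPM in CD44LowKitPos, 0 CPM in CD44LowKitNeg of E11 and 412 CPM in CD44High of E11. In 3 of the 8 genes all CD44High libraries exceeded all CD44LowKitPos libraries. Kit and Myb did not continue in that direction: Kit was at 43.8 CPM in CD44Neg and 42.3 CPM in CD44LowKitNeg of E9.5 and E10, 229.7 CPM in CD44LowKitPos, 51.6 CPM in CD44LowKitNeg of E11 and 75.9 CPM in CD44High of E11, and Myb at 0.867 CPM in CD44Neg and 9.64 CPM in CD44LowKitNeg of E9.5 and E10, 124 CPM in CD44LowKitPos, 0 CPM in CD44LowKitNeg of E11 and 67.9 CPM in CD44High of E11. Of the 8 decreased genes 7 were higher in every CD44LowKitNeg library of E11 than in any CD44LowKitPos library, the exception being Cyp26b1, and 7 were lower in every CD44High library than in any CD44LowKitNeg library of E9.5 and E10. The exception to the latter was Dab2, at 122 CPM in CD44Neg and 103 CPM in CD44LowKitNeg of E9.5 and E10, 10.1 CPM in CD44LowKitPos, 116 CPM in CD44LowKitNeg of E11 and 527 CPM in CD44High of E11. Against the 7 CD44Neg libraries of E9.5 and E10, all 8 increased genes were higher in every CD44LowKitPos library, but only 4 of the 8 decreased genes were lower in every one. In 7 of the 8 decreased genes, all but Dab2, every CD44Neg library was below every CD44LowKitNeg library of E9.5 and E10. Met was at 3.13 CPM in CD44Neg and 85.7 CPM in CD44LowKitNeg of E9.5 and E10, 0.201 CPM in CD44LowKitPos, 70.97 CPM in CD44LowKitNeg of E11 and 12.9 CPM in CD44High of E11. Sat1 was at 530.1 CPM in CD44Neg and 1830 CPM in CD44LowKitNeg of E9.5 and E10, 254 CPM in CD44LowKitPos, 2103 CPM in CD44LowKitNeg of E11 and 1020 CPM in CD44High of E11. Stage differs between these populations, so these levels are set side by side without a test.

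**Figure D5:**
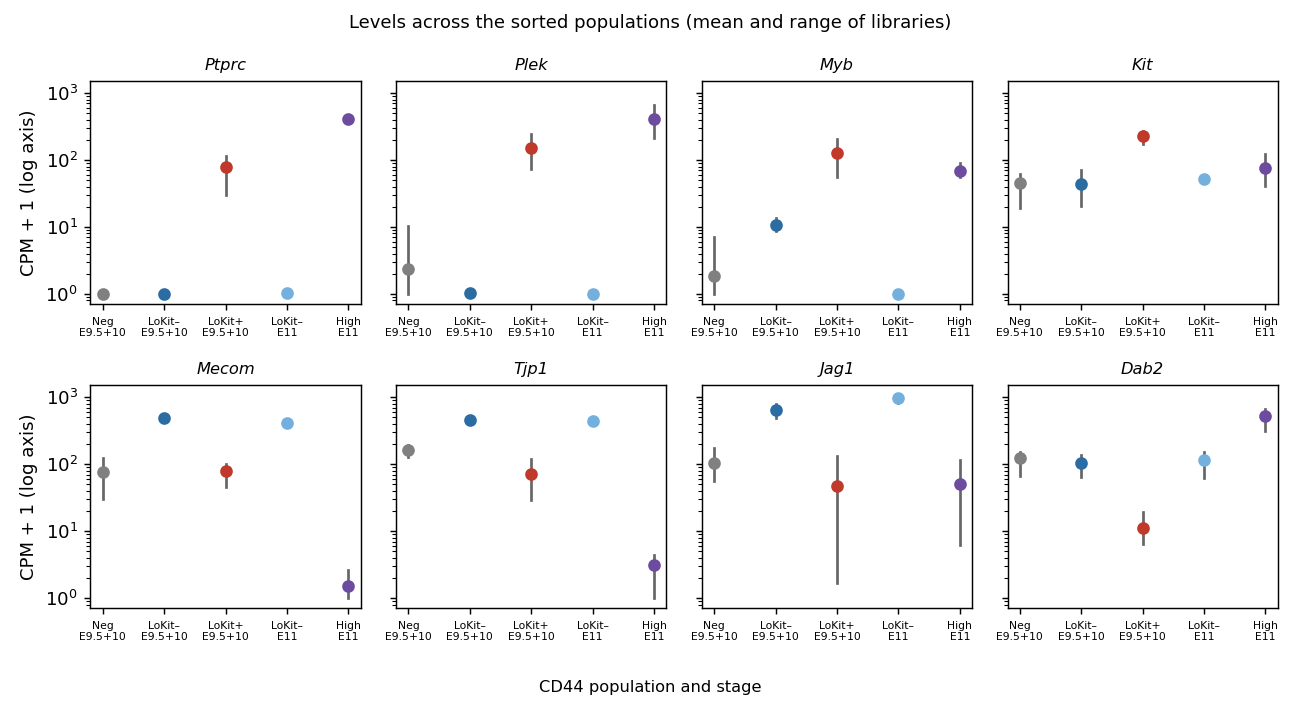
Mean level (point) and range of libraries (line) of 8 genes in CD44Neg at E9.5 and E10 (7 libraries), CD44LowKitNeg at E9.5 and E10 (3), CD44LowKitPos at E9.5 and E10 (3), CD44LowKitNeg at E11 (3) and CD44High at E11 (3), as CPM + 1 on a log axis with all 22 libraries scaled together. Ptprc and Plek are read in CD44LowKitPos and CD44High, Kit is highest in CD44LowKitPos, and Dab2 is lowest in CD44LowKitPos and highest in CD44High.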

How the data were processed

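Cells were sorted in pools of 25 and amplified with Smart-seq2. Per the study's methods the authors clipped the reads with FASTX, aligned them with RNA STAR and counted them with htseq-count on Galaxy, and the submitters' processing notes name mm10, FastQC and HTSeq. Versions, annotation and strand setting are not given in the sources used here, so overlapping and near-identical genes may share reads. The deposited values are raw counts per gene, without normalization. The row Rn45s, a ribosomal RNA gene, took 6.82% to 11.1% of the counts and was kept in the main test. Replicates of the same group and stage differed by more than sampling noise (chi-square per degree of freedom 50.7 for S15 and S16, 46.5 for S17 and S18) and were kept separate.

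Counts of 24454 genes were filtered with filterByExpr (minimum count 10, minimum total 15, by population), scaled by TMM and tested with edgeR 4.0.16 in R 4.3.3 (quasi-likelihood, stage as covariate, prior count 0.125, Benjamini-Hochberg adjustment over all 11059 genes tested). Genes at an adjusted p under 0.05 were called. DESeq2 1.42.0, limma voom 3.58.1 and a fit of all 22 libraries were alternatives. Figures were drawn with matplotlib 3.10.9. A gene with no count can hold up to 3 counts at this depth. The scripts were tested on simulated data. Genes were named by rule: the sorting genes, in each direction the 8 called genes of largest fold whose groups did not overlap, given a mean of at least 20 CPM in the higher group, up to 4 called members of each list (or the 2 of smallest p where fewer than 2 were called), and genes the study names. Mpo was listed with the last of these. Libraries were assigned by their labels, but the comparison with its members and the 31 lists was chosen with earlier results of these data known, so list counts are descriptions. Fitted fold changes of genes at 0 in a group depend on the prior count.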

Additional observations from a re-analysis of the deposited data

How the results depend on the processing

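The number of genes called, 55 in the main test (34 higher and 21 lower), stayed within 1.5 times without the stage covariate (37), under upper-quartile scaling (62), under the size factors of DESeq2 (65), with counts thinned to the smallest library (62) and Rn45s left out (55). It rose to 1356 with no filter (499 higher and 857 lower), 817 when every library had to hold 10 counts or more (310 and 507), 244 with the E10 libraries alone (59 and 185), 1022 with all 22 libraries in the fit (437 and 585), 1925 with DESeq2's Wald test (818 and 1107), 597 with limma voom (227 and 370) and 860 at an adjusted p under 0.10 (369 and 491), and fell to 2, Plek and Coro1a, at an adjusted p under 0.01. Leaving out 1 library at a time gave 0 to 256. The share of calls that were higher was 61.8% in the main test, 36.8% with no filter, 37.9% with at least 10 counts, 24.2% at E10 alone, 42.5% with DESeq2, 38.0% with voom and 42.9% at the looser threshold. The cause of these shifts was not tested. The called genes kept their direction in every one of these fits in which they were tested, and no scaling moved the median of all genes by over 0.1 on the log2 scale. The dependence on stage called 0 genes in the main test and with DESeq2's size factors, 18 with all 22 libraries and 5 when every library had to hold 10 counts or more. Leaving out each E10 library, an alternative chosen after seeing the data, gave 0 to 184. The main test had 3 residual degrees of freedom and 1 library a group at E9.5. No paired analysis was possible because each library number occurs in 1 group only. Of uncalled genes named, Rbpj at E10 alone came to 0.17, Smad4 to -0.30 and Vegfb to -0.14 (log2 fold change), each reversed. Across fits that left out 1 library, ranges that crossed 0 were -0.36 to 0.022 for Gata2, -0.13 to 0.85 for Gfi1, -1.11 to 0.072 for Mnt, -3.21 to 0.091 for Mxi1, -0.44 to 0.18 for Rbpj, -0.031 to 0.63 for Smad2, -0.51 to 0.70 for Smad4 and -0.14 to 0.74 for Vegfb. Lef1, at -0.015 in the main test, came to 0.052 under upper-quartile scaling, 0.73 at E10 alone, 0.00094 with all 22 libraries, 0.0016 with thinned counts and -0.36 to 0.74 without 1 library.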

Other observations

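Counts of the fit of all 22 libraries in this paragraph are to be read against 3.37% of all genes higher and 4.52% lower. Of 24 genes of the TCA cycle 19 differences were positive, with a median log2 fold change of 0.40, and the fit of all 22 libraries called 6 higher, the main test none. Suclg2, a subunit of succinyl-CoA synthetase, was at 63.4, 58.2 and 74.9 CPM in CD44LowKitNeg and 121, 157 and 164 CPM in CD44LowKitPos (adjusted p = 0.0692, and 0.00553 in the fit of all 22 libraries). Idh3g, a subunit of isocitrate dehydrogenase, was at 159.7, 75.9 and 131 CPM against 300.1, 280.2 and 196 CPM (0.0915 and 0.00885). Of 24 genes of cholesterol synthesis 16 differences were negative and none was called in either fit. Hmgcs1, an early enzyme of that route, was at 238, 298 and 310.5 CPM against 121, 96.8 and 179 CPM (adjusted p = 0.0889), and Stard4, a sterol carrier, at 90.8, 85.98 and 66.05 CPM against 27.6, 40.6 and 36.3 CPM (0.0915), both without overlap. Of 33 cathepsins and lysosomal enzymes 12 differences were positive and 21 negative. The main test called none of them, while the fit of all 22 libraries called Ctsh, Ctsl and Lgmn lower and Gusb higher. Ctsl, cathepsin L, was at 850.2, 608 and 884 CPM against 339, 110.4 and 219 CPM (adjusted p = 0.0611 and 0.000156), and Gusb, beta-glucuronidase, at 102, 81.1 and 69.2 CPM against 181, 357 and 249.7 CPM (0.0631 and 0.00176). Of 20 interferon-linked genes 11 differences were positive, and B2m was the one called, lower, in the fit of all 22 libraries. The interferon-linked genes of smallest p had positive differences. Ifitm1 was at 32.5, 35.2 and 39.2 CPM against 186, 174 and 101 CPM without overlap (adjusted p = 0.0503 and 0.176), and Ly6e at 1.71, 41.3 and 20.1 CPM against 27, 161 and 120.5 CPM with overlap (0.0626 and 0.155). Of 21 immediate-early and heat shock genes 11 differences were positive, and the fit of all 22 libraries called Hspa8 and Hspd1 higher. Hsp90aa1, a cytosolic chaperone, was at 1142, 1070 and 953 CPM against 1408, 1844 and 1875 CPM (adjusted p = 0.1 and 0.0624). Macrophage genes gave 3 positive and 5 negative differences among 8 tested, with Csf1r called higher and Stab1 lower in the fit of all 22 libraries.

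Few genes of smooth muscle and mesenchyme (4 of 22) or of neural and epithelial cells (4 of 17) passed the filter, and none was called in either fit. Tagln, a smooth muscle gene, was at 60.8, 27.6 and 70.9 CPM against 31.04, 25.2 and 15.7 CPM (adjusted p = 0.194), and Krt18, a keratin, at 50.8, 29.4 and 26.4 CPM against 66.7, 66.3 and 77.4 CPM (adjusted p = 0.134). Pax8, a kidney and thyroid factor listed with the epithelial genes, was at 0 in CD44LowKitNeg and at 5.43, 4.07 and 7.51 CPM in CD44LowKitPos, at least 38.9-fold higher against a floor of 3 counts over the group (adjusted p = 0.0958). Xist and the Y-linked gene Uty were both read in all 6 libraries, and all 5 sex-linked genes had a negative difference. Xist was at 187, 635 and 272 CPM against 126, 119.7 and 175 CPM (adjusted p = 0.124), and Uty at 78.8, 51.9 and 130.3 CPM against 13.5, 36.6 and 28.4 CPM (adjusted p = 0.0887). Fas, the death receptor, was at 97.4, 114 and 107 CPM against 29.9, 2.93 and 10.02 CPM without overlap (log2 fold change -3.30 ± 0.68 (SE), adjusted p = 0.0692). Of other genes that the study names, the cathepsin gene Ctsc was at 64.5, 77.9 and 130.5 CPM against 130.1, 135 and 168 CPM (adjusted p = 0.213), Madcam1, an adhesion molecule, at 4.63, 22.98 and 68.3 CPM against 24.5, 0 and 0 CPM (0.328, and 0.0341 in the fit of all 22 libraries), Akr1c14 at 238, 407 and 66.9 CPM against 53.4, 0 and 35.8 CPM (0.217) and Lef1, a factor of WNT signalling, at 10.2, 2.69 and 2.36 CPM against 3.41, 4.23 and 4.17 CPM (0.995).

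The calls outside every list that the text has not named were, by name after their values were seen, Celf2, Dapp1, Dok2, Gpx1, Prkcq, Ptpn22, Rab38, Susd3, Tspan32 and Tuba4a, higher, and Amot, Arhgap29, Cpe, Erlec1, Klhl4, Pik3c2a, Spag9, Ssfa2 and Wwtr1, lower. Gpx1, glutathione peroxidase 1, rose from 327, 192 and 241 CPM to 809.9, 1330 and 907 CPM (log2 fold change 2.02 ± 0.30 (SE), adjusted p = 0.0461). Wwtr1, the Hippo pathway coactivator TAZ, fell from 129, 80.8 and 65.8 CPM to 38.8, 17.4 and 15.6 CPM (log2 fold change -2.01 ± 0.30 (SE)), and Amot, which binds TAZ and its relative YAP, from 188, 70.2 and 77.5 CPM to 56.6, 15.1 and 13.4 CPM (log2 fold change -2.16 ± 0.30 (SE)). Amot, Celf2, Cpe, Erlec1, Rab38 and Tspan32 were not called in the fit of all 22 libraries (adjusted p = 0.21, 0.0845, 0.122, 0.0585, 0.059 and 0.16). Dok2, an adaptor of blood cells, was the one called gene whose groups overlapped, at 1.58, 21.5 and 35.98 CPM against 24.5, 239 and 158 CPM.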
